A study of Mus musculus with 9 samples.

Results

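The collagen genes of the mouse were examined in RNA sequencing libraries of dissected aorta, comparing 5 libraries of C57BL/6J aorta (WT) with 4 of aorta in which Apoe had been knocked out (Apoe_KO). Members were all protein-coding genes whose GENCODE symbol is Col, a number, the letter a and a number. This gave 44 genes of the 33293 gene identifiers in the deposited table. All animals were male, aged 7 to 8 weeks and kept on normal chow, and Apoe is the gene of apolipoprotein E, a protein of plasma lipoproteins. Neither the knockout allele and its strain background nor the number of animals behind a library is stated in the labels, so the p-values measure only the spread between these libraries, which may be technical.

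Collagens are the main structural proteins of the artery wall. Each collagen molecule is a helix of 3 alpha chains, made from the same gene or from several, and the classes differ in what the molecules build. Fibrillar collagens (types I, III, V and relatives) form the fibrils that bear tension in the adventitia and between the elastic layers of the media. Basement membrane collagens (type IV) form the sheets under endothelium and around each smooth muscle cell, and microfibrillar collagens (type VI) form beaded filaments that link cells to the matrix. FACIT collagens sit on the surface of fibrils.

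Values are FPKM, which are reads scaled to the exon length of the gene and to the depth of the library. The length takes all annotated exons of a gene together, for example 9816 bases for Col3a1, 12426 for Col1a2 and 6563 for Col1a1. Rankings of different genes, ratios between them and class shares therefore depend on these lengths. The recovered depth, 17.0 to 19.8 M per library, put 1 read on a gene of 2 kb at 0.0253 to 0.0294 FPKM. Apoe was at 513 to 643 FPKM in WT and 5.64 to 6.55 in Apoe_KO, so every library followed its label. Lymphocyte transcripts set WT 2 and Apoe_KO 4 apart from the rest: 8 lymphocyte markers summed to 411 and 404 FPKM there and to 17.0 to 40.4 FPKM in the other 7. In whole tissue, fewer cells of a type and less RNA per cell cannot be told apart.

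Collagen transcripts made up 0.681% to 0.917% in WT and 0.504% to 0.794% in Apoe_KO of all FPKM in a library. Of the 44 genes, 28 reached 1 FPKM in at least 4 libraries and were tested, and all 28 were above 1 FPKM in each of the 9 libraries. Between WT and Apoe_KO, 4 of these 28 fell (14.3%), namely Col5a3, Col3a1, Col4a3 and Col6a6, where 3.92% of all 13383 genes tested fell (limma, Benjamini-Hochberg adjusted p under 0.05). No collagen gene rose, where 3.43% of all genes tested did, although at an unadjusted p under 0.05 in limma 2 (Col4a6 and Col8a2) were higher and 11 lower, where 8.59% and 16.0% of all genes were, and limma-voom on the recovered reads also called 0. The median log2 fold change of the 28 was -0.21, beside -0.07 over all genes tested, and 21 of the 28 fitted values were below 0, where 63.9% of all genes were.

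The count of 4 rested on single libraries: leaving out 1 library at a time gave 1 to 6 lower calls, with 1 without Apoe_KO 1, 2 without WT 1, WT 4, WT 5 or Apoe_KO 4, and 6 without WT 3. Over all genes the lower share ranged from 1.34% to 5.14% in the same fits. Without WT 2 and Apoe_KO 4 together, 1 gene (Col5a3) was called.

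**Figure D1:**
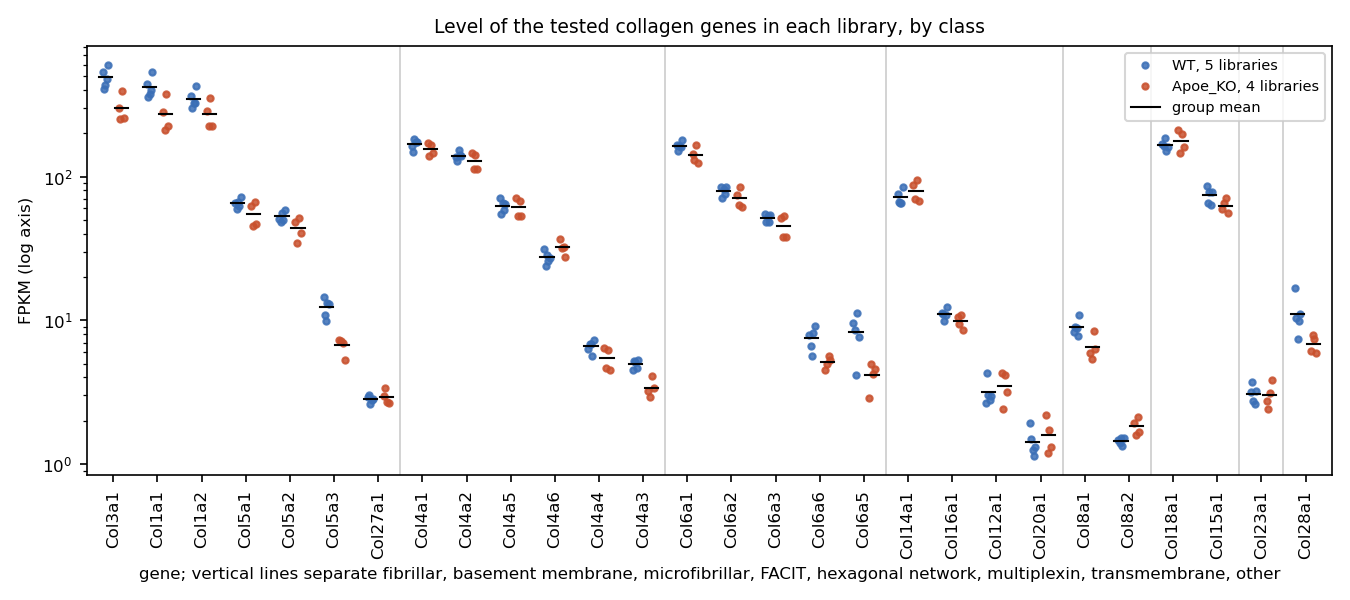
Level of each of the 28 tested collagen genes in each library, in FPKM on a log axis, with WT libraries in blue, Apoe_KO libraries in orange and group means as black lines. Col3a1, Col1a1 and Col1a2 lie above all other genes in the mean over the 9 libraries, and the Apoe_KO points of Col5a3, Col3a1 and Col4a3 all lie below the WT points.

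The fibrillar class held the collagen transcripts of highest FPKM and 2 of the 4 genes that fell. Of its 11 genes, 7 were tested, 2 fell and none rose (limma; at an unadjusted p under 0.05, 5 were lower and 0 higher), and the class median log2 fold change was -0.38.

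Col3a1, the single chain of type III collagen, which forms fibrils together with type I in extensible tissues, had the highest mean FPKM of the collagens (ENSMUSG00000026043, GRCm38 chr1:45311538-45349706, plus strand). It stood at 535, 409.6, 437, 475 and 597 FPKM in WT 1 to 5 and at 298, 251, 395 and 254 FPKM in Apoe_KO 1 to 4. All 4 Apoe_KO libraries lay below all 5 WT libraries, with Apoe_KO 3 highest among them and close under WT 2. The means were 490.5 ± 75.7 FPKM in WT (SD, n = 5) and 299.6 ± 67.1 FPKM in Apoe_KO (SD, n = 4), so the knockout level was 61.1% of the WT level (log2 fold change -0.72, SE 0.16, limma adjusted p = 0.0248). The call missed the threshold without WT 1 (limma adjusted p = 0.0563), WT 4 (0.059) or WT 5 (0.053). It also missed it without Apoe_KO 1 (limma adjusted p = 0.0569), Apoe_KO 4 (0.0586), or WT 2 and Apoe_KO 4 together (0.0649). The same held with no filter on low values (limma adjusted p = 0.0638) and with the replicate number as a block (0.113). The 150 bases before its start are shown because this gene carries the largest change in FPKM of any collagen; capitals mark the TATAAA motif, searched on both strands.
Col3a1 upstream, chr1:45311388-45311537, plus strand: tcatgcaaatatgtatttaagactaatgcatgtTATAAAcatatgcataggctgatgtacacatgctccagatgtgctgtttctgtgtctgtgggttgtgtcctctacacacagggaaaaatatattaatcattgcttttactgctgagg
The motif lies 117 to 112 bases before the start. In the 250 bases before the start, TATAAA on either strand was found in 5 of the 35 collagen genes that the RefSeq promoter table (GRCm38.p6) holds and in 13.0% of its 27025 promoters, and Col3a1 was the only one of the 5 that was expressed highly enough to be tested.

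The chains of type I collagen, the main load-bearing fibril of adventitia, were next in level. Col1a1 stood at 442, 357, 372, 399 and 530.5 FPKM in WT 1 to 5 and at 283, 212, 374 and 225 FPKM in Apoe_KO 1 to 4. Apoe_KO 1, 2 and 4 were below every WT library, while Apoe_KO 3 lay within the WT range, and the difference missed the threshold (log2 fold change -0.64, SE 0.18, limma adjusted p = 0.0592, 95% interval -1.04 to -0.24). Col1a1 was called in 1 of the 9 fits that left out a library, the one without Apoe_KO 3 (limma adjusted p = 0.0289). Over these 9 fits the limma adjusted p ran up to 0.124. Col1a2 stood at 366, 300.1, 327, 327 and 425 FPKM in WT and at 285, 226, 351 and 224 FPKM in Apoe_KO, with the same library within the WT range (log2 fold change -0.38, SE 0.15, limma adjusted p = 0.16, 95% interval -0.71 to -0.04).

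Type V collagen is the minor fibrillar collagen that is built into type I fibrils and limits their diameter, and its alpha 3 chain replaces other type V chains in some tissues. Col5a3 encodes that chain (ENSMUSG00000004098, GRCm38 chr9:20770050-20815067, minus strand). It stood at 14.5, 10.9, 9.81, 13.2 and 13.1 FPKM in WT 1 to 5 and at 7.35, 7.15, 6.98 and 5.26 FPKM in Apoe_KO 1 to 4. No Apoe_KO library reached the lowest WT library, WT 3. The means were 12.3 ± 1.89 FPKM in WT (SD, n = 5) and 6.69 ± 0.960 FPKM in Apoe_KO (SD, n = 4), and the knockout level was 54.4% of the WT level (log2 fold change -0.79, SE 0.12, limma adjusted p = 0.00694, 95% interval -1.06 to -0.51). This was the only collagen called lower in each of the 9 fits that left out 1 library, with limma adjusted p between 0.0054 and 0.0239.

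Col5a3 is the collagen with the smallest p, so the 150 bases before its start are shown; capitals mark CCAAT and CCGCCC, the latter being GGGCGG read on the other strand.
Col5a3 upstream, chr9:20815068-20815217, minus strand: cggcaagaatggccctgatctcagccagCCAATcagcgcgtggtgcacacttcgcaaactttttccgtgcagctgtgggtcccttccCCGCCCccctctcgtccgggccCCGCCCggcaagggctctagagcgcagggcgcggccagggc
CCAAT lies 122 to 118 bases before the start, and GGGCGG on the other strand lies 63 to 58 and 41 to 36 bases before it. Searched on both strands in the 250 bases before the start, CCAAT was present in 12 of 35 collagen genes and 34.5% of all promoters, and GGGCGG in 21 of 35 and 32.9%. None of these motifs overlapped another in the sequences shown, and a match of letters does not show that a factor binds.

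The other type V chains differed less. Col5a1 had means of 64.9 ± 4.69 FPKM in WT (SD, n = 5) and 55.2 ± 10.8 FPKM in Apoe_KO (SD, n = 4) (log2 fold change -0.25, SE 0.12, limma adjusted p = 0.24), and Col5a2 had means of 52.7 ± 4.47 FPKM in WT (SD, n = 5) and 43.6 ± 7.68 FPKM in Apoe_KO (SD, n = 4) (log2 fold change -0.28, SE 0.12, limma adjusted p = 0.17). Both missed the threshold, and their groups overlapped. Per FPKM of Col5a1, Col5a3 was at 0.149 to 0.220 in WT and 0.105 to 0.158 in Apoe_KO, a ratio looked at after its values were seen and given with no test; these ranges overlapped. Col5a2 and Col3a1 are neighbours on chromosome 1, on opposite strands and 24.6 kb apart. Col27a1, a fibrillar chain best known from cartilage, lay at 2.61 to 3.37 FPKM in the 9 libraries (log2 fold change 0.03).

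**Figure D2:**
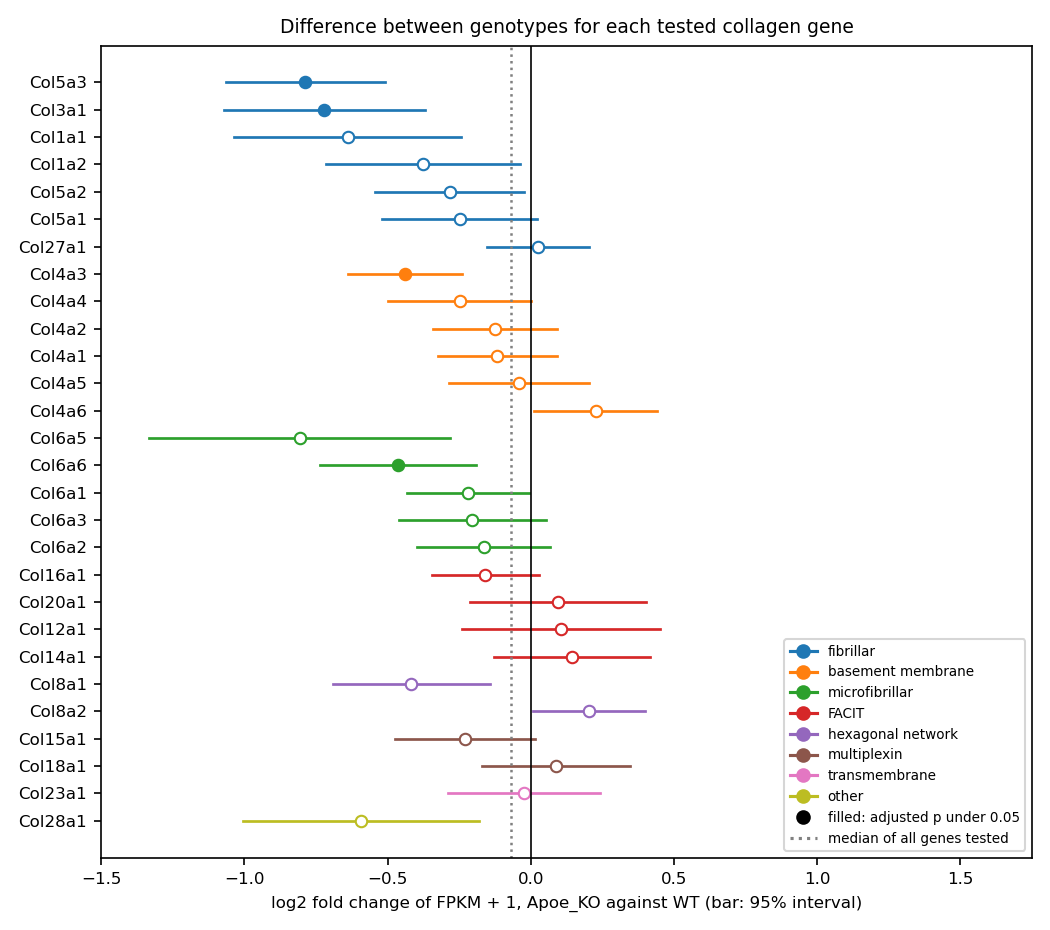
Fitted log2 fold change of the 28 tested collagen genes, Apoe_KO against WT, ordered by class, with 95% intervals from limma as bars. Filled points are the 4 genes at an adjusted p under 0.05 (Col5a3, Col3a1, Col4a3 and Col6a6), and the dotted line is the median of all genes tested, -0.07.

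Of the 6 basement membrane chains, all 6 were tested, 1 (Col4a3) fell and none rose (limma; at an unadjusted p under 0.05, 1 was lower and 1 higher); the class median was -0.12. With 1 library left out this median ranged from -0.18 to -0.06, and it was nearest to 0 without Apoe_KO 2 (-0.06) and without Apoe_KO 4 (-0.08). Type IV collagen is built from Col4a1 and Col4a2 in all basement membranes, and the chains of Col4a3, Col4a4 and Col4a5 form a network of their own best known from the kidney glomerulus, while Col4a5 and Col4a6 occur together in some smooth muscle basement membranes. The genes lie in head-to-head pairs: Col4a1 with Col4a2 on chromosome 8, Col4a4 with Col4a3 on chromosome 1, and Col4a6 with Col4a5 on the X chromosome.

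Col4a1 stood at 163, 148, 183, 175 and 173 FPKM in WT 1 to 5 and at 172, 138, 167 and 145 FPKM in Apoe_KO 1 to 4 (log2 fold change -0.12, SE 0.09, limma adjusted p = 0.477). Col4a2 stood at 138, 128, 152, 141 and 138 FPKM in WT and at 145, 112, 142 and 114 FPKM in Apoe_KO (log2 fold change -0.13, SE 0.10, limma adjusted p = 0.462). In both genes Apoe_KO 2 and 4 were lowest and Apoe_KO 1 and 3 lay among the WT libraries. The 95% intervals ran from -0.32 to 0.09 for Col4a1 and from -0.34 to 0.09 for Col4a2.

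Col4a3 (GRCm38 chr1:82586921-82722059, plus strand) stood at 4.50, 5.19, 5.11, 4.62 and 5.27 FPKM in WT 1 to 5 and at 3.22, 2.92, 4.09 and 3.37 FPKM in Apoe_KO 1 to 4. The groups did not overlap. Its means were 4.94 ± 0.354 FPKM in WT (SD, n = 5) and 3.40 ± 0.498 FPKM in Apoe_KO (SD, n = 4), so that it fell by 0.44 on the log2(FPKM + 1) scale (SE 0.09, limma adjusted p = 0.0198). The call missed the threshold without Apoe_KO 1 (limma adjusted p = 0.0507) and without WT 2 and Apoe_KO 4 together (0.0772). It also missed it with quantile normalization (limma adjusted p = 0.069), no filter on low values (0.0523) or the replicate number as a block (0.129). Its partner Col4a4 had means of 6.60 ± 0.633 FPKM in WT (SD, n = 5) and 5.44 ± 1.02 FPKM in Apoe_KO (SD, n = 4), with overlapping groups (log2 fold change -0.25, SE 0.11, limma adjusted p = 0.207). Only 71 bases separate the starts of Col4a4 and Col4a3, which run in opposite directions, and that whole interval is shown because the 2 transcripts share it; it holds none of the 3 motifs.
Between Col4a4 and Col4a3, chr1:82586850-82586920, minus strand: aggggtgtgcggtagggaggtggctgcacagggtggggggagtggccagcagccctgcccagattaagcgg

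The pair on the X chromosome stood differently. Col4a6 had means of 27.4 ± 2.69 FPKM in WT (SD, n = 5) and 32.2 ± 3.76 FPKM in Apoe_KO (SD, n = 4) (log2 fold change 0.23, SE 0.10, limma adjusted p = 0.18), and Col4a5 had means of 62.8 ± 5.91 FPKM in WT (SD, n = 5) and 61.3 ± 9.22 FPKM in Apoe_KO (SD, n = 4) (log2 fold change -0.04, SE 0.11, limma adjusted p = 0.848). Neither passed the threshold. Within each library, Col4a6 over Col4a5 was 0.421 to 0.442 in WT and 0.477 to 0.599 in Apoe_KO, so the groups did not overlap; this ratio was chosen after its values were seen and is given with no test.

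Of the 6 microfibrillar genes, 5 were tested, 1 (Col6a6) fell and none rose (limma; at an unadjusted p under 0.05, 3 were lower and 0 higher); the class median was -0.22. The classical type VI molecule joins the chains of Col6a1, Col6a2 and Col6a3. Col6a4, Col6a5 and Col6a6 encode further chains, related to that of Col6a3. Col6a1 stood at 165, 149, 163, 159.7 and 181 FPKM in WT 1 to 5 and at 143, 130.5, 166 and 124 FPKM in Apoe_KO 1 to 4 (log2 fold change -0.22, SE 0.10, limma adjusted p = 0.194). Col6a2 stood at 83.9, 70.8, 81.3, 76.0 and 84.4 FPKM in WT and at 74.7, 63.0, 85.1 and 61.5 FPKM in Apoe_KO (log2 fold change -0.16, SE 0.10, limma adjusted p = 0.366). As with type IV, Apoe_KO 2 and 4 were lowest and Apoe_KO 3 lay within the WT range of Col6a1 and just above that of Col6a2. Col6a3 had means of 51.7 ± 3.26 FPKM in WT (SD, n = 5) and 45.3 ± 8.43 FPKM in Apoe_KO (SD, n = 4) (log2 fold change -0.20, SE 0.12, limma adjusted p = 0.308).

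Col6a4, Col6a5 and Col6a6 were far less abundant. Col6a6 (GRCm38 chr9:105687809-105828160, minus strand) stood at 7.91, 6.64, 5.62, 8.14 and 9.09 FPKM in WT 1 to 5 and at 4.52, 4.94, 5.68 and 5.26 FPKM in Apoe_KO 1 to 4. Apoe_KO 3 was just above WT 3, and the other Apoe_KO libraries were below all WT libraries. Its adjusted p was just under the threshold (log2 fold change -0.46, SE 0.12, limma adjusted p = 0.0483). Col6a6 was called in 1 of the 9 fits that left out a library, the one without WT 3. Over these 9 fits the limma adjusted p ran from 0.0185 to 0.110. Its call was also lost with median centring (limma adjusted p = 0.0798), quantile normalization (0.0877), no filter on low values (0.123) or the replicate number as a block (0.207). Its neighbour Col6a5, 27.9 kb away on the same strand, had the lowest fitted value of all collagens without passing the threshold: it stood at 9.58, 8.58, 4.16, 11.2 and 7.69 FPKM in WT 1 to 5 and at 2.86, 4.94, 4.20 and 4.58 FPKM in Apoe_KO 1 to 4 (log2 fold change -0.81, SE 0.23, limma adjusted p = 0.0686). WT 3 was the lowest WT library and lay among the Apoe_KO libraries. Col6a5 was called in 1 of the 9 fits that left out a library, the one without WT 3 (limma adjusted p = 0.00894). Over these 9 fits the limma adjusted p ran up to 0.150. Col6a4, the next gene of this cluster, was under the level tested, at 0.0180 to 0.711 FPKM.

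FACIT collagens showed no call in either direction: of 9 genes, 4 were tested, and limma called 0 lower and 0 higher, with none at an unadjusted p under 0.05. Their median log2 fold change was 0.10, and with 1 library left out it ranged from 0.01 (without Apoe_KO 1) to 0.19 (without Apoe_KO 2), with 0.05 without Apoe_KO 3 and 0.06 without WT 4. Col14a1, a fibril-bound collagen of many connective tissues, stood at 75.8, 66.9, 65.4, 65.5 and 85.2 FPKM in WT 1 to 5 and at 87.2, 69.3, 94.5 and 67.9 FPKM in Apoe_KO 1 to 4 (log2 fold change 0.14, SE 0.12, limma adjusted p = 0.51, 95% interval -0.13 to 0.42). Col16a1, another fibril-associated chain, stood at 11.3, 11.1, 9.89, 10.8 and 12.4 FPKM in WT and at 10.5, 9.35, 10.9 and 8.62 FPKM in Apoe_KO (log2 fold change -0.16, SE 0.08, limma adjusted p = 0.279). The groups of both genes overlapped. Col12a1 lay at 2.40 to 4.33 FPKM (log2 fold change 0.11) and Col20a1 at 1.14 to 2.18 FPKM (log2 fold change 0.10).

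Type VIII collagen, which forms hexagonal networks and is made by smooth muscle and endothelium of vessels, had chains with fitted values on opposite sides of 0. Neither chain passed the threshold alone. Col8a1 stood at 8.30, 8.97, 8.84, 7.82 and 10.9 FPKM in WT 1 to 5 and at 5.92, 5.41, 8.40 and 6.30 FPKM in Apoe_KO 1 to 4 (log2 fold change -0.42, SE 0.12, limma adjusted p = 0.0696). Col8a2 stood at 1.48, 1.40, 1.53, 1.33 and 1.52 FPKM in WT and at 1.94, 1.58, 2.13 and 1.66 FPKM in Apoe_KO (log2 fold change 0.20, SE 0.09, limma adjusted p = 0.186). Col8a2 was the only tested collagen whose Apoe_KO libraries all lay above the WT libraries, where 4.90% of all genes tested did so; Col5a3, Col3a1 and Col4a3 were the 3 that separated downward, where 7.48% of all genes did. Col8a1 was called in 1 of the 9 fits that left out a library, the one without Apoe_KO 3 (limma adjusted p = 0.0339). Over these 9 fits its limma adjusted p ran up to 0.146.

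The multiplexins Col15a1 and Col18a1 encode collagens of basement membrane zones that carry glycosaminoglycan chains, and Col18a1 is the source of endostatin. Col18a1 stood at 169, 164, 187, 150.5 and 159.9 FPKM in WT 1 to 5 and at 209, 146, 197 and 159.8 FPKM in Apoe_KO 1 to 4 (log2 fold change 0.09, SE 0.12, limma adjusted p = 0.676). Col15a1 stood at 85.4, 65.0, 78.5, 63.0 and 78.3 FPKM in WT and at 59.6, 65.5, 70.7 and 55.4 FPKM in Apoe_KO (log2 fold change -0.23, SE 0.11, limma adjusted p = 0.227). Both sets of groups overlapped, with intervals of -0.17 to 0.35 and -0.47 to 0.01.

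Of the remaining classes, Col28a1, a collagen related in structure to type VI and known from peripheral nerve, stood at 16.7, 10.4, 7.44, 9.86 and 11.0 FPKM in WT 1 to 5 and at 6.13, 7.94, 7.36 and 5.89 FPKM in Apoe_KO 1 to 4 (log2 fold change -0.59, SE 0.18, limma adjusted p = 0.0823). WT 1 was highest and WT 3 lay among the Apoe_KO libraries. Col28a1 was called in 1 of the 9 fits that left out a library, the one without WT 3 (limma adjusted p = 0.037). Over these 9 fits the limma adjusted p ran up to 0.166. The transmembrane collagen Col23a1 stood at 3.16, 3.70, 2.76, 2.60 and 3.23 FPKM in WT and at 2.75, 2.42, 3.13 and 3.86 FPKM in Apoe_KO (log2 fold change -0.02).

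The 16 genes that were not tested reached at most 1.43 FPKM in any library. Nearest under the limit was the FACIT gene Col19a1, at 0.720 to 1.43 FPKM and above 1 FPKM in 3 libraries. The fibrillar chains Col11a1 and Col11a2, which occur in cartilage fibrils, lay at 0.492 to 1.03 and 0.528 to 1.05 FPKM. Transmembrane Col13a1 stood at 0.527, 0.600, 0.519, 0.386 and 0.513 FPKM in WT and at 0.356, 0.585, 0.311 and 0.284 FPKM in Apoe_KO, and the anchoring fibril gene Col7a1 at 0.118, 0.200, 0.273, 0.147 and 0.282 FPKM in WT and at 0.468, 0.152, 0.258 and 0.455 FPKM in Apoe_KO. Both sets of groups overlapped. Col26a1 stood at 0.118, 0.0647, 0.0714, 0.109 and 0.0920 FPKM in WT and at 0.0125, 0.0659, 0.0325 and 0.0333 FPKM in Apoe_KO, and the hypertrophic cartilage gene Col10a1 lay at 0.0501 to 0.178 FPKM. The Col26a1 groups overlapped at Apoe_KO 2 and WT 2. Cartilage collagens Col2a1, Col9a1, Col9a2 and Col9a3 reached at most 0.373, 0.138, 0.654 and 0.427 FPKM, and Col17a1, Col22a1, Col24a1 and Col25a1 at most 0.0816, 0.136, 0.127 and 0.102 FPKM.

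The makeup of the collagen transcripts within a library was then compared, which does not move with scaling between libraries. All collagens summed to 2469 ± 245 FPKM in WT (SD, n = 5) and 1964 ± 340 FPKM in Apoe_KO (SD, n = 4), with overlapping groups. The fibrillar share of that sum was 53.3% to 60.3% in WT and 46.5% to 52.3% in Apoe_KO. Col1a1, Col1a2 and Col3a1 alone gave 47.6% to 55.0% in WT and 41.0% to 46.9% in Apoe_KO. Both shares were lower in every Apoe_KO library than in every WT library.

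Shares add to the whole, so a smaller share of one class enlarges the others. FACIT collagens held 3.41% to 3.92% in WT and 4.75% to 5.06% in Apoe_KO. Multiplexins held 8.45% to 11.1% in WT and 11.2% to 12.9% in Apoe_KO. Type VI genes held 11.9% to 13.1% in WT and 13.2% to 14.4% in Apoe_KO. These 3 classes did not overlap between the groups, whereas the basement membrane share did, at 14.7% to 18.5% in WT and 17.6% to 20.7% in Apoe_KO. In FPKM, the FACIT sum was 89.4 ± 9.33 in WT (SD, n = 5) and 96.4 ± 15.5 in Apoe_KO (SD, n = 4), and the multiplexin sum was 240.1 ± 20.6 and 241 ± 31.8, so both sums overlapped.

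**Figure D3:**
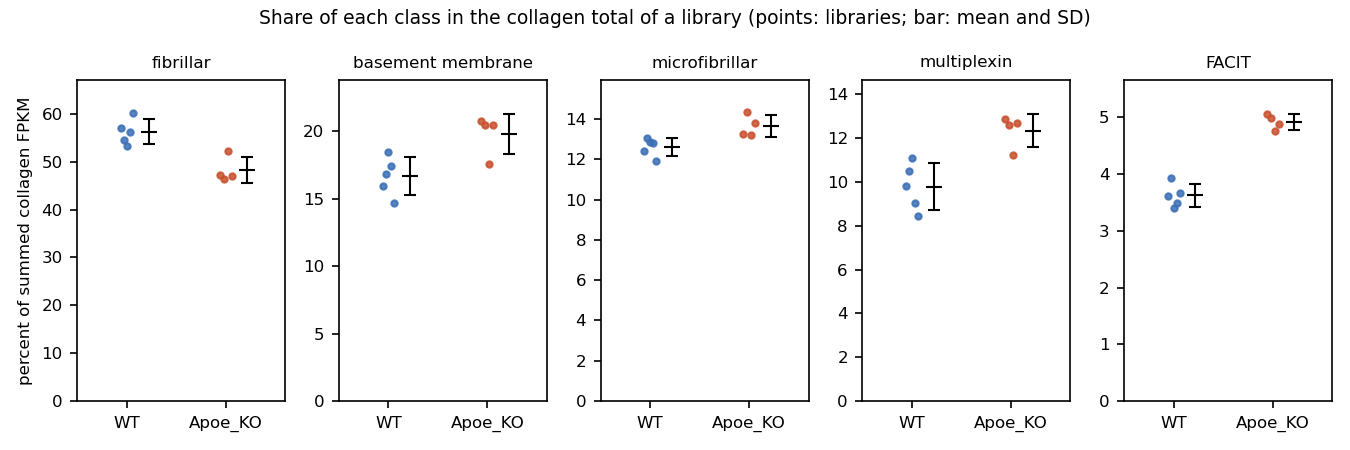
Share of each class in the summed collagen FPKM of each library, in percent on an axis from 0, for the 5 most abundant classes, with WT libraries in blue, Apoe_KO libraries in orange and bars for mean and SD. The fibrillar share is 53.3% to 60.3% in WT and 46.5% to 52.3% in Apoe_KO, and the FACIT share is 3.41% to 3.92% and 4.75% to 5.06%.

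Ratios within each library were compared for chains that assemble together and for the 2 main fibrillar types, III and I (Col3a1 over Col1a1). The 7 ratios were tested by a two-sided exact permutation test over the 126 splits of 5 and 4 libraries. The smallest p this design can give is 0.0159, which becomes 0.0556 after Benjamini-Hochberg adjustment over the 7 ratios where 2 of them reach it. Col1a1 over Col1a2, which make up type I collagen in a fixed proportion of chains, was 1.21, 1.19, 1.14, 1.22 and 1.25 in WT 1 to 5 and 0.994, 0.937, 1.07 and 1.01 in Apoe_KO 1 to 4. All Apoe_KO libraries were lower, Apoe_KO 3 included (log2 difference -0.26, exact permutation p = 0.0159, adjusted p = 0.0556). Col8a1 over Col8a2 was 5.62, 6.40, 5.80, 5.89 and 7.18 in WT and 3.05, 3.42, 3.94 and 3.79 in Apoe_KO. All 4 Apoe_KO libraries were again lower (log2 difference -0.80, exact permutation p = 0.0159, adjusted p = 0.0556), so both ratios separated the groups without passing 0.05 after adjustment.

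The other 5 ratios overlapped between the groups. Col3a1 over Col1a1 was 1.12 to 1.21 in WT and 1.05 to 1.19 in Apoe_KO (log2 difference -0.08, exact permutation p = 0.111, adjusted p = 0.259). Log2 differences were 0.01 for Col4a1 over Col4a2 (exact permutation adjusted p = 0.905), 0.04 for Col5a1 over Col5a2 (0.622), -0.05 for Col6a1 over Col6a2 (0.306) and 0.01 for Col6a3 over Col6a1 (0.905). Col1a2 over Col3a1, looked at after its values were seen and given with no test, was 0.685 to 0.749 in WT and 0.881 to 0.955 in Apoe_KO, with no overlap. Col4a3 over Col4a4, likewise, was 0.711 to 0.816 in WT and 0.502 to 0.750 in Apoe_KO, with overlap.

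**Figure D4:**
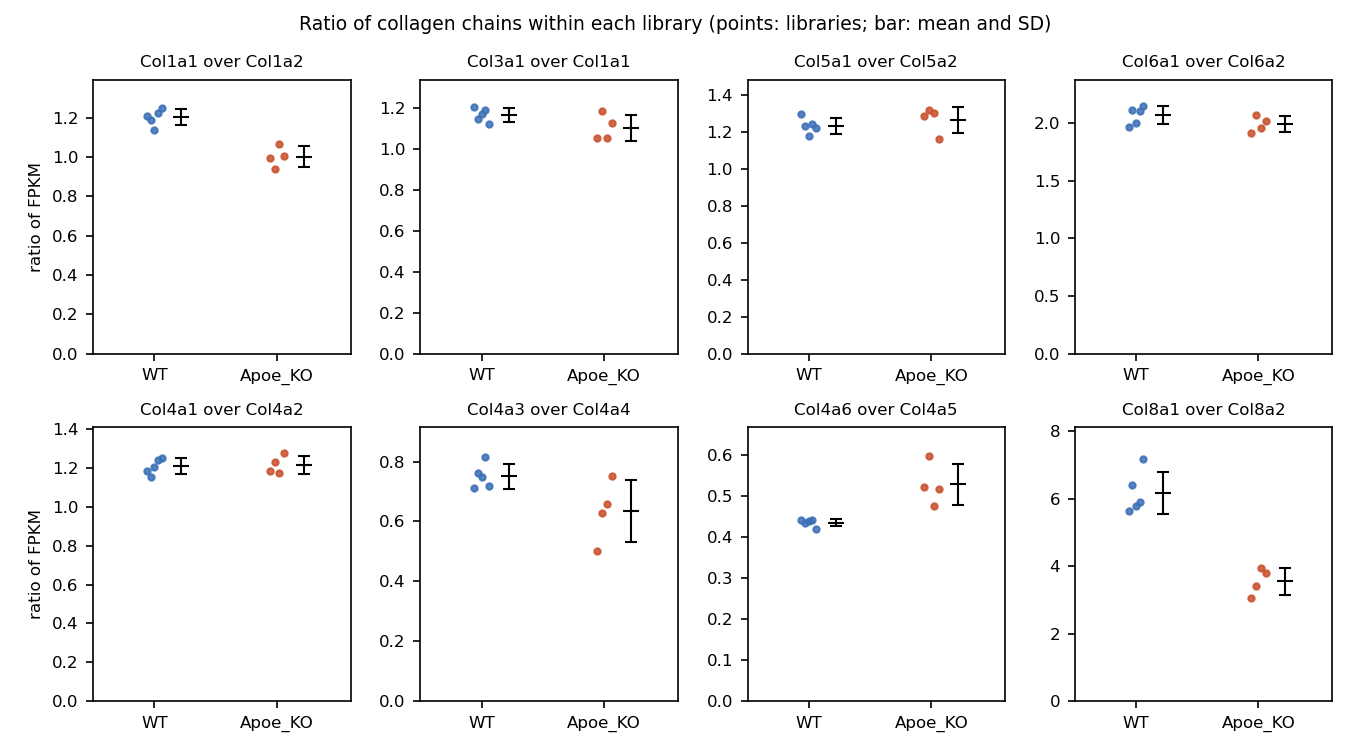
Ratio of collagen chain levels within each library on a linear axis from 0, with WT libraries in blue, Apoe_KO libraries in orange and bars for mean and SD; Col4a3 over Col4a4 and Col4a6 over Col4a5 were added after their values were seen. Col1a1 over Col1a2 (1.14 to 1.25 in WT, 0.937 to 1.07 in Apoe_KO) and Col8a1 over Col8a2 (5.62 to 7.18 and 3.05 to 3.94) separate the groups.

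Some libraries stood high or low across many collagens. Among the WT libraries, WT 5 was highest for 13 of the 28 tested genes and WT 2 lowest for 11. Among the Apoe_KO libraries, Apoe_KO 3 was highest for 15, Apoe_KO 2 lowest for 14 and Apoe_KO 4 lowest for 12, and Apoe_KO 2 and 4 were the lowest pair for 19. Markers of smooth muscle, which makes types I, III and IV in the media, summed to 6659.5 and 6499 FPKM in Apoe_KO 1 and 3 and to 5267 and 5364 FPKM in Apoe_KO 2 and 4; WT libraries lay between 5040.3 and 6022 FPKM. Acta2 alone was at 3749 to 4669 FPKM in Apoe_KO. Other lists split the same pairs. Adipocyte markers summed to 2144 and 2509 FPKM in Apoe_KO 1 and 3 and to 4391 and 3373 FPKM in Apoe_KO 2 and 4. Lymphocyte markers and skeletal and cardiac muscle markers were also lower in Apoe_KO 1 and 3. Mesothelial markers were higher there. The part of any of these cells in the order of the libraries was not tested.

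Markers of the cell types in and around the vessel were set beside the collagens, where 3.92% of all genes tested fell, 3.43% rose and 63.9% had fitted values below 0. Of 10 fibroblast markers, none rose or fell by limma (at an unadjusted p under 0.05, 0 were lower and 2 higher), and they summed to 2272 to 2950.4 FPKM in WT and 2436 to 2933 in Apoe_KO. Of 10 smooth muscle markers, 3 rose (Des, Itga8 and Synpo2), 6 were higher and 0 lower at an unadjusted p under 0.05, and 9 had fitted values above 0. Of 8 adipocyte markers 3 (Lep, Adrb3 and Plin1) fell, 5 were lower at an unadjusted p under 0.05, all 8 had fitted values below 0, and the sum was 3426 to 5293 FPKM in WT and 2144 to 4391 in Apoe_KO. Of 8 endothelial markers 1 (Kdr) fell, 3 were lower at an unadjusted p under 0.05 and all 8 had fitted values below 0 (median -0.38), with a sum of 211 to 361 FPKM in WT and 194 to 321 in Apoe_KO. Of 8 macrophage markers 2 (Lyve1 and Fcgr3) rose, 4 were higher at an unadjusted p under 0.05 and all 8 had fitted values above 0 (median 0.28), with a sum of 157 to 216 FPKM in WT and 204 to 303 in Apoe_KO. All these sums overlapped between the groups, no marker was at 0 in every library, and the part of these cells in the collagen values was not tested. Chondrocyte markers, of which 4 of 8 could be tested and 0 were called (limma; 1 lower and 0 higher at an unadjusted p under 0.05), summed to 21.8 to 29.7 FPKM in WT and 18.7 to 31.5 in Apoe_KO.

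The machinery that makes, processes and degrades collagen was read from 5 lists with 73 genes, of which 67 were tested: 2 fell and 7 rose, beside 3.92% and 3.43% of all genes tested, and the median log2 fold change was 0.03. Leaving out 1 library gave 2 to 9 higher calls, with 2 without Apoe_KO 3 and 3 without WT 4, and leaving out WT 2 and Apoe_KO 4 together gave 2. Among 24 genes of synthesis and export, 23 were tested, 4 rose and none fell. P4ha1 and P4ha2 encode catalytic subunits of prolyl 4-hydroxylase, which hydroxylates prolines of the collagen helix and makes it stable at body temperature. P4ha1 stood at 21.1, 21.8, 27.6, 26.3 and 21.4 FPKM in WT 1 to 5 and at 62.1, 40.1, 45.1 and 50.03 FPKM in Apoe_KO 1 to 4. Its groups did not overlap, and it was the gene with the largest rise in the 5 lists (log2 fold change 1.02, SE 0.13, limma adjusted p = 0.0026). P4ha2 had means of 7.97 ± 1.00 FPKM in WT (SD, n = 5) and 13.4 ± 2.38 FPKM in Apoe_KO (SD, n = 4) (log2 fold change 0.67, SE 0.13, limma adjusted p = 0.0142); the call was lost without Apoe_KO 3 (adjusted p = 0.0506) and without WT 2 and Apoe_KO 4 together (0.0634) by limma.

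The other risers of this list were Tmem38b and P3h2. Tmem38b, a potassium channel of the endoplasmic reticulum whose loss impairs collagen secretion, had means of 16.0 ± 1.92 FPKM in WT (SD, n = 5) and 23.7 ± 1.72 FPKM in Apoe_KO (SD, n = 4) (log2 fold change 0.55, SE 0.09, limma adjusted p = 0.00825). P3h2, a prolyl 3-hydroxylase acting on type IV collagen, had means of 6.46 ± 0.658 FPKM in WT (SD, n = 5) and 9.47 ± 1.85 FPKM in Apoe_KO (SD, n = 4) (log2 fold change 0.48, SE 0.12, limma adjusted p = 0.0423), and was called in 3 of the 9 fits that left out a library, those without WT 3, Apoe_KO 2 or Apoe_KO 4, with adjusted p from 0.0213 to 0.119 over the 9. Serpinh1, the collagen chaperone HSP47, did not pass the threshold (log2 fold change 0.06, limma adjusted p = 0.714).

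Among 13 genes of processing and crosslinking, 12 were tested, 1 fell and 1 rose. Pxdn, the peroxidase that forms sulfilimine crosslinks in type IV collagen, stood at 23.2, 22.7, 25.7, 27.2 and 22.6 FPKM in WT 1 to 5 and at 17.7, 14.8, 15.1 and 14.5 FPKM in Apoe_KO 1 to 4. It fell with no overlap between the groups (log2 fold change -0.61, SE 0.08, limma adjusted p = 0.0029). Loxl3, a lysyl oxidase family enzyme, rose (log2 fold change 0.38, SE 0.10, limma adjusted p = 0.0416) but was called in 1 of the 9 fits that left out a library, the one without Apoe_KO 2, with adjusted p from 0.0148 to 0.119 over the 9. Lox itself, the main crosslinking oxidase of fibrils, had a log2 fold change of -0.07 (limma adjusted p = 0.769).

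Of 11 collagen receptor genes, 9 were tested and none rose or fell by limma (at an unadjusted p under 0.05, 0 were lower and 1 higher). The smallest p-values were those of Cd44 (log2 fold change 0.30, limma adjusted p = 0.170) and of Ddr1, a receptor kinase for collagen (log2 fold change -0.18, limma adjusted p = 0.211). Of 13 turnover genes, 11 were tested and 2 rose, both inhibitors of matrix metalloproteinases: Timp3 (log2 fold change 0.36, SE 0.07, limma adjusted p = 0.0176) and Timp1 (log2 fold change 0.37, SE 0.08, limma adjusted p = 0.0226). The Timp3 call was lost without WT 4 (limma adjusted p = 0.0501), Apoe_KO 3 (0.0609) or WT 2 and Apoe_KO 4 together (0.0533). The Timp1 call was lost in the same 3 fits, with limma adjusted p of 0.0585, 0.06 and 0.0698. It was also lost with no filter on low values (limma adjusted p = 0.059).

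Of 12 fibril partners, all 12 were tested and 1 fell. Sparc, a secreted glycoprotein that binds fibrillar collagen, was at 1145 to 1373 FPKM in WT and at 765 to 1033 FPKM in Apoe_KO (log2 fold change -0.54, SE 0.11, limma adjusted p = 0.0188). Its call was lost without WT 2 and Apoe_KO 4 together (limma adjusted p = 0.0574) and when each library was centred on its median (0.0538). The median of these partners was 0.16, with 9 fitted values above 0.

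**Figure D5:**
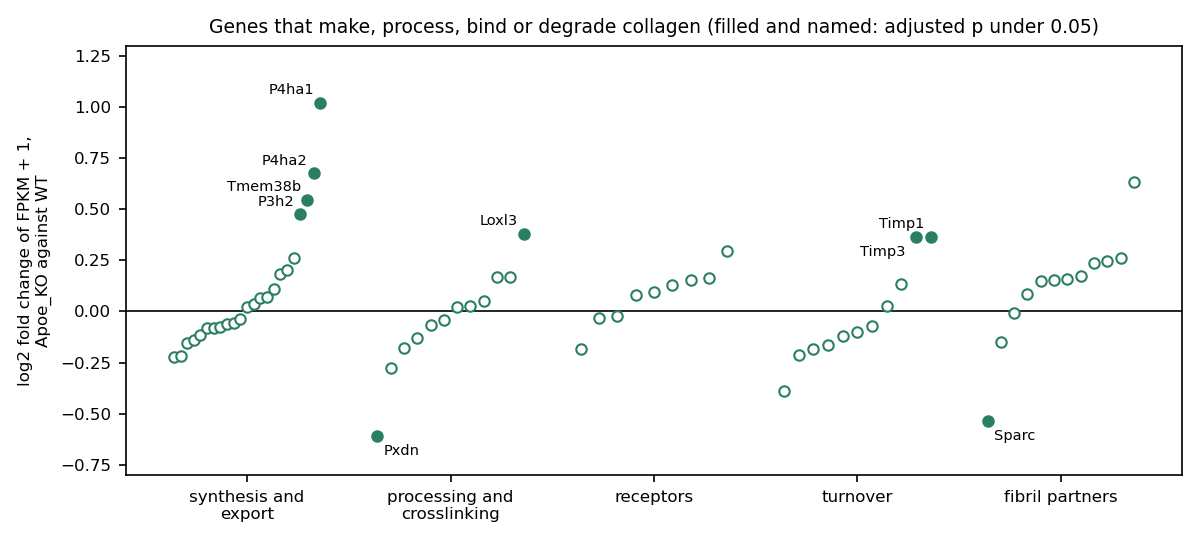
Fitted log2 fold change, Apoe_KO against WT, of the 67 tested genes in the 5 lists of collagen synthesis, processing, receptors, turnover and fibril partners. Named filled points are the 9 genes at a limma adjusted p under 0.05, with P4ha1 highest at 1.02 and Pxdn lowest at -0.61.

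Several collagen genes overlap other annotated genes, and no label says whether reads were counted by strand. Of the 4 that fell, Col5a3 overlaps Gm26274 and Col6a6 overlaps Gm38314, both on the opposite strand. Col3a1 holds the microRNA Gm47302 on its own strand. Col4a3 overlaps C430014B12Rik on the opposite strand and n-R5s213 on its own strand. Overlap was judged from the start to the end of each gene, and whether exons overlap was not examined. Where exons do overlap, reads of a partner on the opposite strand cannot be told apart from those of the collagen without strand. For such a partner on the same strand, knowing the strand would not separate them either. The starts of Col4a1 and Col4a2 overlap by 22 bases.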

How the data were processed

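RNA of dissected aorta was sequenced in 5 WT and 4 Apoe_KO libraries. The labels give polyA RNA as the molecule, while the extraction protocol names removal of ribosomal RNA. The authors deposited 1 table of normalized values, taken here as FPKM from the values themselves, since no header names the unit; per the submitters' processing notes the build was GRCm38 and limma was used, and aligner, counter, annotation and strand setting were not given in the sources used here. Reads were recovered from the steps between low values: with exon lengths of GENCODE M21, 97.6% to 97.9% of values up to 50 reads came within 0.1 of a whole number (chance 20%), at depths of 17.0 to 19.8 M. These are estimates, and counting error at such depth is small for the abundant collagens.

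Identifiers were matched to GENCODE M21 symbols (33240 of 33293). The 13383 genes reaching 1 FPKM in 4 or more libraries entered a fit by limma 3.58.1 (R 4.3.3, trend and robust) of log2(FPKM + 1), and p-values were adjusted by Benjamini-Hochberg over all of them at 0.05. Fold changes on that scale understate the change of low genes. Tests were checked on simulated data. Ratios were tested by exact permutation (numpy 2.4.6), and the 95% intervals used the t distribution of scipy 1.17.1.

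Named members are those called, the 2 most abundant per class, and those with groups that do not overlap, and from each list up to 4 called genes by smallest p, or the 2 of smallest p where none was called; other members named with values, and Serpinh1 and Lox, were chosen after their values were seen. The members, classes and lists were chosen with earlier results of these data known. Alternatives were other pseudocounts, filters and scalings, library weights, voom on recovered reads, a replicate block and leaving out libraries. Promoter sequences are from RefSeq (GRCm38.p6).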

Additional observations from a re-analysis of the deposited data

Results flagged for a closer look

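For each collagen, chain ratio and class sum, each group was looked at for 1 library whose distance to the nearest other exceeded the 95% limit of Dixon's test for its size. This picked 3 of 134 groups (2.24%), where chance alone picks about 1 in 20. Col12a1, a FACIT collagen, was at 4.33 FPKM in WT 2, with the nearest WT library at 3.04 and the lowest at 2.67. Col6a4, a type VI chain that was not tested, was at 0.569 FPKM in Apoe_KO 4. The nearest Apoe_KO library was at 0.0872 and the lowest at 0.0180. Col17a1, a transmembrane collagen of epithelia that was not tested, was at 0.0816 FPKM in WT 2, with the nearest WT library at 0.0280 and the lowest at 0.0176. WT 2 and Apoe_KO 4 are also the libraries with high lymphocyte transcripts (411 and 404 FPKM summed over 8 markers), and the part of that in these 3 values was not tested.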

How the results depend on the processing

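Against 4 collagens called lower, leaving out 1 library gave 1 to 6, leaving out WT 2 and Apoe_KO 4 together 1, no filter on low values 1, quantile normalization 2 and a limit of 0.5 on the absolute log2 fold change 2; the cause was not tested, although no filter raises the number of genes tested to 30432. Collagens called higher were 0 in every setting run. Against 2 listed genes called lower, median centring gave 1 and leaving out WT 2 and Apoe_KO 4 gave 1. Against 7 called higher, leaving out 1 library gave 2 to 9, WT 2 and Apoe_KO 4 together 2, no filter 4 and the 0.5 limit 3. With the replicate number as a block, in a fit that leaves out WT 5, limma called 0 collagens lower. That fit called 0 listed genes lower and 1 higher. Deviations from the group mean over the tested genes correlated at 0.26, -0.27, -0.13 and -0.22 between same-numbered libraries. The numbers were therefore not taken to pair the libraries. The difference, Apoe_KO minus WT, in the log2 ratio of Col4a1 over Col4a2 ranged from -0.0134 to 0.0259 and that for Col6a3 over Col6a1 from -0.0488 to 0.0569 with 1 library left out, and without WT 2 and Apoe_KO 4 the first was -0.0296. The fibrillar median stayed below 0 in each setting run, and the basement membrane median ranged from -0.18 without Apoe_KO 1 to -0.053 with median centring. The FACIT median ranged from -0.0076 with a filter of 10 FPKM to 0.21 with library weights. Of the tested FACIT genes, only Col14a1 and Col16a1 passed the 10 FPKM filter, so -0.0076 is a median over fewer genes. Collagens under 1 FPKM were compared only without the filter.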
